A study of Mus musculus with 6 samples.

Results

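Oncofetal genes are active in the fetal liver, are silenced or kept low after birth, and are often switched on again in liver cancer and in regenerating or injured liver. The 8 genes described here were taken by symbol from a table of 26608 genes, and all 8 had a row. They encode secreted or surface proteins that serve as markers of liver cancer (Afp, Gpc3, Golm1 and Tff3) and RNA-binding proteins of the LIN28 and IGF2BP families (Lin28b, Igf2bp1, Igf2bp2 and Igf2bp3). RNA was sequenced from whole liver of 6 mice aged 6 weeks, 3 labelled LiK and 3 labelled LiKM. The labels leave both names unexplained. From knowledge of the published work, LiKM hepatocytes lack Mdm2, the ubiquitin ligase that restrains p53. The promoter that drives recombination is not given in the labels. The comparison therefore asks what differs when Mdm2 loss is added to the LiK liver, with no wild-type liver in the series.

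As background, alpha-fetoprotein (Afp) is the fetal counterpart of albumin, and its gene is shut down in hepatocytes soon after birth by repressors that include ZHX2 and ZBTB20. p53 is also known to repress it. LIN28 proteins block the maturation of the let-7 microRNAs, and let-7 in turn represses Lin28b and the Igf2bp genes, whose proteins bind and stabilise growth-related transcripts of the fetus.

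The 4 genes for RNA-binding proteins share a sequence feature that the other 4 lack, and it is shown because let-7 is a known repressor of these genes. The mature let-7 microRNAs below are given with the seed, bases 2 to 8, in capitals. Their sequences come from RefSeq (GRCm38.p6), at chr13:48538239-48538260 on the minus strand for let-7a and chr9:106178846-106178867 on the plus strand for let-7g.
mmu-let-7a-5p: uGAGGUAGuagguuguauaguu
mmu-let-7g-5p: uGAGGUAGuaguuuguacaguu
The complement of that seed, CTACCTC, was searched on the transcript strand of the 3′ UTR of the longest coding GENCODE M21 transcript (GRCm38). It occurred 4 times in Lin28b, 4 times in Igf2bp1, 1 time in Igf2bp2 and 1 time in Igf2bp3, and 0 times in Afp, Gpc3, Golm1 and Tff3. Of 20532 3′ UTRs of at least 50 bases, 9.03% held it. The UTRs of the 4 genes with a match were between 1784 and 6337 bases long. Those without were 2666 bases long in Golm1 and between 177 and 359 bases in Afp, Gpc3 and Tff3. The match nearest to the stop codon is printed for each gene with the matching bases in capitals. All 4 lie on the minus strand, at chr10:45381020-45381049 for Lin28b, chr11:95961776-95961805 for Igf2bp1, chr16:22059471-22059500 for Igf2bp2 and chr6:49086785-49086814 for Igf2bp3.
Lin28b: ccttcacccgggcgggaagtCTACCTCatg
Igf2bp1: gcagtgctgtgcgaagtaaaCTACCTCaag
Igf2bp2: gaaaaacacacaaataaaagCTACCTCagg
Igf2bp3: aaacgtgcatttttactcaaCTACCTCagg
These are matches of letters. The libraries selected messenger RNA, and no microRNA was measured.

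The libraries held between 19909993 and 24874343 counts. All 6 had Ddx3y, a Y-linked gene (1005 to 1386 counts), and nearly no Xist (1 to 5 counts), the pattern of male mice. Hepatocyte markers summed to between 143276 and 165644 CPM, the usual count scaled to library size, in LiK and between 141559 and 165111 CPM in LiKM, and all 12 of them were detected. For Mdm2 the counts were 597, 577 and 697 (LiK) and 2589, 2744 and 1255 (LiKM), and a count over the whole gene cannot show a deletion inside it. By the chi-square of counts over genes per degree of freedom, LiK 3 differed more from LiK 1 (125) and LiK 2 (104) than from LiKM 1 (73.5) or LiKM 2 (84.2). The values without LiK 3 are therefore given for Afp, Gpc3 and Golm1.

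Of the 8 genes, Afp and Golm1 rose in LiKM, 4 did not pass the test, and Lin28b and Igf2bp1 were too scarce to be tested. The test was edgeR's quasi-likelihood test, with p-values adjusted by Benjamini-Hochberg over all 13537 genes tested and called below 0.05. In that comparison 5.92% of all genes were called, 5.11% higher and 0.813% lower. None of the 6 tested genes was called lower by edgeR, by DESeq2 or by limma, and none was lower at an unadjusted p under 0.05. At that unadjusted level 4 of them (Afp, Gpc3, Golm1 and Igf2bp3) were higher, against 22.4% of all genes in either direction. In 5 of the 6, all LiKM libraries lay above all LiK libraries, as they did in 17.8% of all genes, and 29.6% of all genes had libraries of the genotypes that did not overlap in either direction. Each of the 6 had at least 13 counts in every library, so none of them entered the test through a single genotype. Their median log2 fold change was 1.21, and that of all genes tested was -0.0034.

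**Figure D1:**
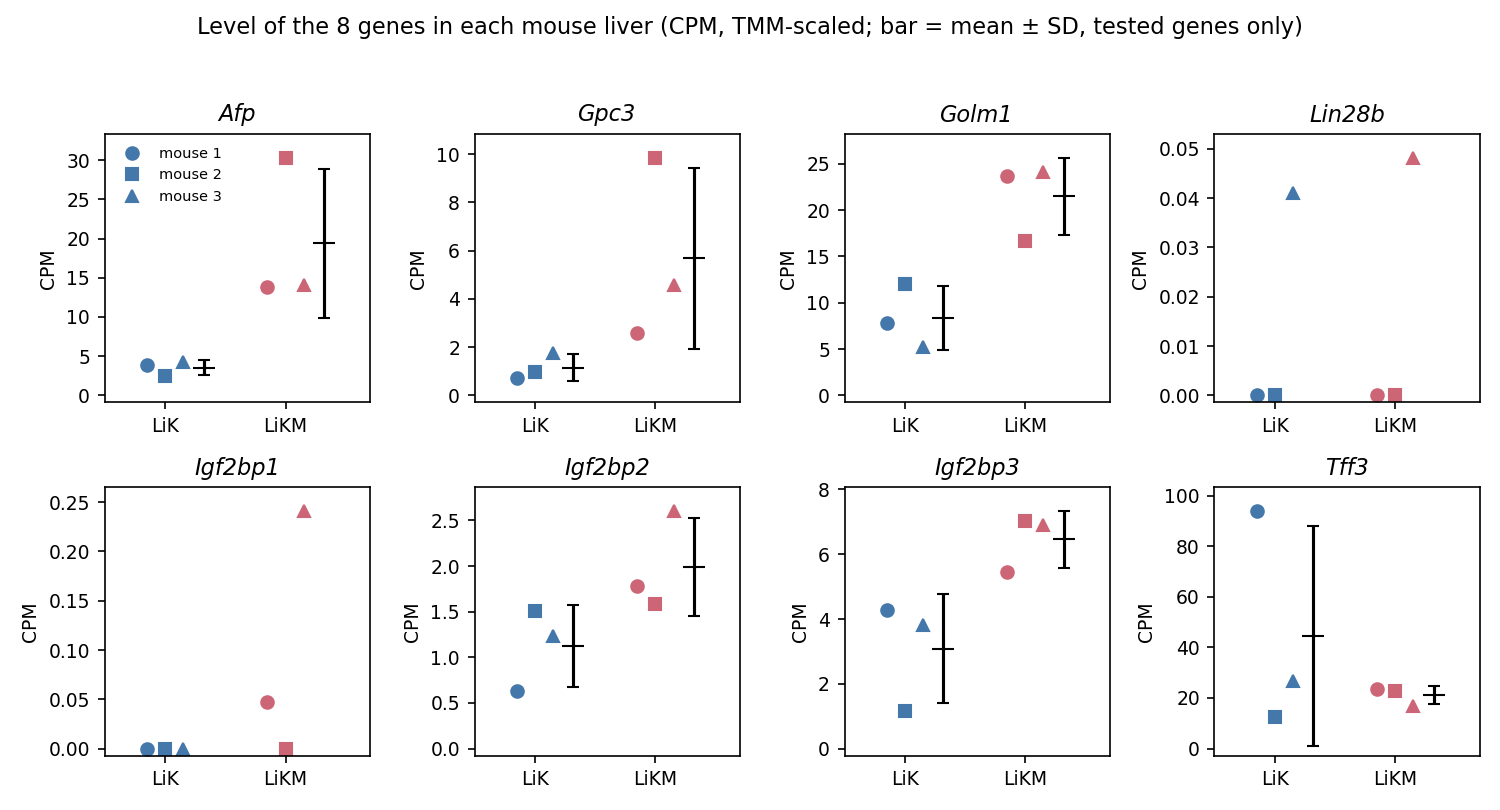
Level of each gene in every mouse (y axes, CPM after TMM scaling, a different linear scale in each panel) by genotype (x axes); symbols are single mice and black bars the mean ± SD of 3 mice for the 6 tested genes. LiKM 2 is highest for Afp (30.3 CPM) and Gpc3 (9.85 CPM), and LiK 1 stands far above the rest for Tff3 (94.0 CPM).

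Afp is the classic fetal serum protein of the liver. It stood at 3.85, 2.42 and 4.31 CPM in the LiK libraries and at 13.8, 30.3 and 14.0 CPM in the LiKM libraries. The genotypes did not overlap, and LiKM 2 stood above both other LiKM libraries. The mean rose from 3.53 ± 0.988 to 19.4 ± 9.46 CPM (SD, n = 3 each). The log2 fold change was 2.45 (SE 0.38), or 5.47-fold, with an edgeR adjusted p of 0.0213. Without LiKM 2 the log2 fold change was 1.95, and the edgeR adjusted p of 0.0548 no longer passed. The call was also lost without LiK 1 (edgeR adjusted p = 0.0881) and without LiK 2 (0.0782), and it was kept without LiK 3 (0.0491).

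Afp lies on chromosome 5 beside the other genes of the albumin family, and none of those was called. Alb, at 90851 CPM (LiK mean) and 97163 CPM (LiKM mean), differed by 0.10, Afm (afamin) by -0.02 and Gc (vitamin D binding protein) by -0.04 on the log2 scale, with edgeR adjusted p of 0.838, 0.947 and 0.893. Of the 4 family members, 1 was therefore called.

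None of the 15 tested regulators of Afp was called in edgeR's test, and Trp73 was too scarce to test. The repressor Zhx2 had a log2 fold change of -0.19 (22.1 CPM in LiK, 19.3 CPM in LiKM) and the repressor Zbtb20 one of 0.19 (5.78 and 6.59 CPM). The hepatocyte factor Hnf4a was at -0.48 with an edgeR adjusted p of 0.213, and Cebpa at -0.62 with 0.062. The list median was -0.16. Of 8 genes known to be under ZHX2 or ZBTB20, Afp alone was called. A positive log2 fold change was found in 6 of them, against 49.5% of all genes tested, and the list median was 1.80. Both values include Afp and Gpc3 themselves. Mup20 (-0.84, edgeR adjusted p = 0.0996) was lower in every LiKM library than in every LiK library. H19, the imprinted fetal long noncoding RNA, was counted 260, 21 and 56 times in LiK and 156, 1473 and 282 times in LiKM. Its genotypes overlapped, LiKM 2 was again the highest library, and the log2 fold change of 2.47 was not called (edgeR adjusted p = 0.232). Cyp2a4, a female-biased cytochrome, likewise peaked in LiKM 2, with 14781 counts against 7375 and 2121 in the other LiKM libraries and 393 to 3140 in LiK (log2 fold change 2.51, edgeR adjusted p = 0.134). Gpc3 peaked there too, but the rest of the list did not. Lpl (994 counts) and Elovl3 (2713 counts) were highest in LiKM 3, and Igf2 (20 counts) in LiKM 1. Mup20 (57651 counts) and Elovl3 (75 counts) were at their lowest in LiKM 2.

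Gpc3, on the X chromosome, encodes glypican 3, a heparan sulfate proteoglycan held at the cell surface, where it binds Wnt and hedgehog ligands. Its level was 0.722, 0.956 and 1.76 CPM in LiK and 2.58, 9.85 and 4.58 CPM in LiKM. No LiKM library fell as low as a LiK library, but LiKM 2 was more than the sum of the other LiKM values. The means were 1.15 ± 0.547 and 5.67 ± 3.75 CPM (SD, n = 3 each). The log2 fold change of 2.28 (SE 0.56, 95% interval 0.97 to 3.60) missed the call, since its edgeR adjusted p was 0.0606. It passed with DESeq2 (adjusted p = 0.000684), with library totals as the only scaling (edgeR adjusted p = 0.0471), with no filter (0.0379) and without LiKM 1 (0.048). Without LiK 3 the log2 fold change was 2.75 with an edgeR adjusted p of 0.079, and without LiKM 2 it was 1.60 with 0.155.

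None of the other glypicans was called by edgeR, and whether they differ from Gpc3 was not tested. Gpc4 averaged 69.1 CPM for LiK and 63.1 CPM for LiKM (log2 fold change -0.13), Gpc1 at 11.8 and 8.78 CPM (-0.43) and Gpc6 at 4.83 and 7.71 CPM (0.67). Gpc2 had 3 to 9 counts in each library and Gpc5 had 2 counts in 1 library, and neither was tested. Among 17 tested genes that build, trim or release heparan sulfate chains and glypicans, 2 rose and 0 fell in edgeR's test. The shares over all genes tested were 5.11% higher and 0.813% lower, and the list median was -0.0056. Sulf2, a sulfatase that removes sulfate groups from heparan sulfate outside the cell and thereby frees bound ligands, rose from 8.39 to 35.1 CPM (log2 fold change 2.06, edgeR adjusted p = 0.0098). Its counts were 153, 162 and 235 (LiK) and 792, 924 and 543 (LiKM). Hs2st1, which adds such groups, rose by 0.53 on the log2 scale (edgeR adjusted p = 0.0382). Notum, the lipase that inactivates Wnt proteins, was not called (0.33).

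Afp and Gpc3 had the most similar profiles of the 6 tested genes. Over the 6 libraries, each gene's log2 CPM was centred on its own mean, and the root mean square distance between the centred profiles was 0.45 for this pair, the smallest of 15 pairs. Golm1 and Igf2bp2 came next with 0.53, and the pairs with Tff3 lay between 1.06 and 1.80. The 250 bases before the RefSeq start of Afp and Gpc3 are shown because this pair of similar profiles has promoters unlike in base composition. Afp is at chr5:90490464-90490713 on the plus strand and Gpc3 at chrX:52613975-52614224 on the minus strand (GRCm38.p6). Capitals mark GTTAAT, the core of the site of hepatocyte nuclear factor 1, and TATAAA, the TATA box, searched on both strands.
Afp: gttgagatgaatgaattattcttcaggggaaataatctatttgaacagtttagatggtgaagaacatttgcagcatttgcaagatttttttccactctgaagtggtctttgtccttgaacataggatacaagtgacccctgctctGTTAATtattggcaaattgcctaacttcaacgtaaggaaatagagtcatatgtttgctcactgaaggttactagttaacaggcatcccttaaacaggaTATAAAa
Gpc3: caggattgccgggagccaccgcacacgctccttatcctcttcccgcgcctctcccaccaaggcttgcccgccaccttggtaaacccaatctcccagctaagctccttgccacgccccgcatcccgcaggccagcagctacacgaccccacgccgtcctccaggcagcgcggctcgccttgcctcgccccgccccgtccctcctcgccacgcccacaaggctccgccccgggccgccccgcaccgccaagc
GTTAAT begins 105 bases and TATAAA 7 bases before the RefSeq start of Afp, and neither occurs in the Gpc3 window. Over 32851 windows of the same length, 6.43% held GTTAAT and 12.4% held TATAAA. The Afp window has 1 CpG and 36% G and C, and the Gpc3 window has 25 CpG and 71.6%, where the median window has 6 CpG. Of the other genes, windows were at hand for Golm1, Lin28b, Igf2bp2 and Igf2bp3, with 20, 6, 40 and 21 CpG, and 0 of these held GTTAAT, while TATAAA was found in that of Golm1.

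Golm1 (chromosome 13) encodes GP73, a Golgi membrane protein that is cleaved and released into serum in liver disease. Its level was 7.80, 12.0 and 5.25 CPM for LiK 1 to 3 and 23.6, 16.7 and 24.2 CPM for LiKM 1 to 3. The highest LiK library, LiK 2, lay below the lowest LiKM library, LiKM 2, which here was not the peak. Golm1 rose from 8.36 ± 3.42 to 21.5 ± 4.16 CPM (SD, n = 3 each). The log2 fold change was 1.37 (SE 0.30), or 2.58-fold, with an edgeR adjusted p of 0.0467 close to the threshold. This call was lost whichever of the 6 libraries was left out, with edgeR adjusted p between 0.0616 and 0.158 (0.0773 without LiK 3) and log2 fold changes between 1.11 and 1.72. It was also lost with limma-voom (adjusted p = 0.0505) and when edgeR tested for a change beyond 1.5-fold (0.184).

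Golm1 was the only called gene among 23 Golgi membrane, matrix and glycan-processing genes, whose median was -0.019. Its paralogue Golm2, listed under the older symbol Casc4, differed by 0.15 (8.62 CPM in LiK, 9.54 CPM in LiKM). The Golgi membrane protein gene Golim4 differed by -0.04 and Furin, whose protease cleaves GP73, by -0.27 on the log2 scale, none of them called by edgeR.

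**Figure D2:**
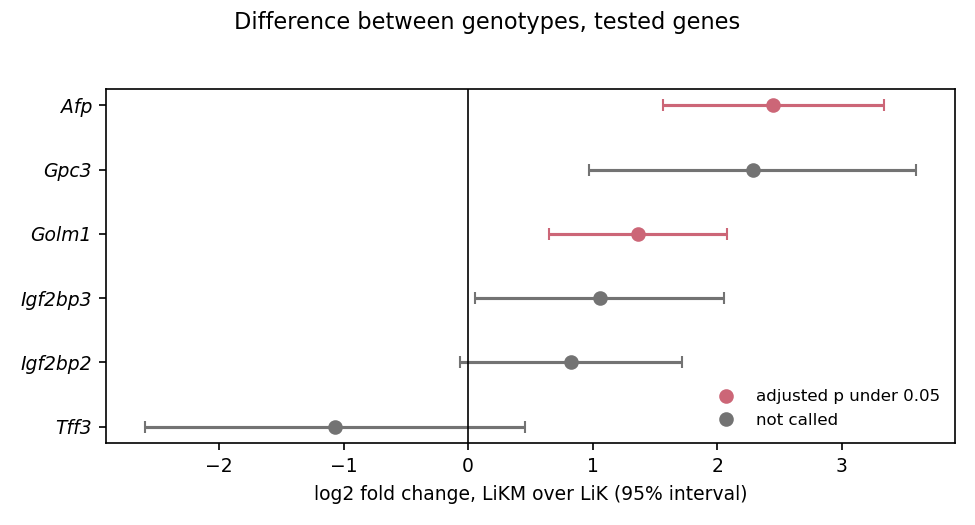
Log2 fold change of LiKM over LiK (x axis) for the 6 tested genes (y axis), with 95% intervals from edgeR's quasi-likelihood fit; red marks an adjusted p under 0.05. The intervals of Afp, Gpc3, Golm1 and Igf2bp3 lie above 0, and those of Igf2bp2 (-0.067 to 1.71) and Tff3 (-2.59 to 0.46) span it.

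The RNA-binding proteins fell into scarce and measurable members. Lin28b had 1 count in LiK 3, 1 in LiKM 3 and 0 elsewhere. Igf2bp1 had 0 counts in every LiK library and 1, 0 and 5 in LiKM 1, LiKM 2 and LiKM 3. A count of 0 in a single library allows a level of up to 0.123 to 0.151 CPM (3 counts, counting error only), so no difference was detectable at this depth for Lin28b. Igf2bp1 passed that limit in LiKM 3 alone, at 0.241 CPM. Lin28a, the paralogue of Lin28b, had 0 counts in all 6 libraries.

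Igf2bp3 (chromosome 6) was measurable in every liver. Its level was 4.29, 1.16 and 3.82 CPM in LiK and 5.45, 7.03 and 6.89 CPM in LiKM. The genotypes did not overlap, but LiK 2 lay far below the other LiK libraries. The means were 3.09 ± 1.69 and 6.46 ± 0.876 CPM (SD, n = 3 each). The log2 fold change of 1.06 (SE 0.43, 95% interval 0.06 to 2.06) was not called (edgeR adjusted p = 0.20). Without LiK 2 it was 0.67, with an edgeR adjusted p of 0.195.

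Igf2bp2 (chromosome 16), the family member most often found in adult tissue, did not pass the test. It stood at 0.626, 1.51 and 1.23 CPM in LiK and 1.79, 1.59 and 2.60 CPM in LiKM, with LiK 2 just under LiKM 2. The log2 fold change was 0.82 (SE 0.38, 95% interval -0.067 to 1.71) and was not called (edgeR adjusted p = 0.257). It rested on 13 to 54 counts per library.

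Of 20 tested genes of the LIN28 and let-7 axis, 0 were called by edgeR in either direction, although 16 had a positive log2 fold change, with a median of 0.31. The uridylyl transferase Tut7, under its older symbol Zcchc6, which tags let-7 precursors for decay, differed by 0.14, and Dicer1, which cuts them to the mature form, by -0.10. The known let-7 targets Hmga1 (0.34), Igf1r (0.66), Nras (0.24) and Ccnd2 (0.59) each had LiKM libraries above all LiK libraries without being called, the smallest edgeR adjusted p among them being 0.0652 for Ccnd2. Hmga2, a fetal chromatin protein and let-7 target, had 3 to 8 counts in every library. Among 16 tested writers, erasers and readers of the m6A RNA mark, which IGF2BP proteins bind, 0 were called by edgeR, with a median of -0.094. Hnrnpa2b1 differed by -0.03 and the demethylase Alkbh5 by -0.22.

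Among 10 tested transcripts known to be bound by IGF2BP proteins, Cd44 alone rose, where 5.11% of all genes tested were called higher. Cd44, a receptor for hyaluronan, went from 5.81 to 13.2 CPM (log2 fold change 1.18, edgeR adjusted p = 0.0251), from counts of 105, 132 and 140 (LiK) and 214, 316 and 313 (LiKM). Igf2, the fetal growth factor from which the family takes its name, stayed scarce, with 5 to 16 counts in LiK and 11 to 20 in LiKM (log2 fold change 0.50, edgeR adjusted p = 0.547). Myc ranged from 103 to 383 counts in LiK and from 145 to 772 in LiKM and was not called (0.82).

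Tff3 (chromosome 17) encodes a trefoil peptide secreted with mucus, and its LiK mean rested on a single mouse. The LiK libraries were at 94.0, 12.4 and 26.7 CPM and the LiKM libraries 23.7, 22.8 and 17.0 CPM. LiK 1 was at 1952 counts, and the LiKM values all fell between LiK 2 and LiK 3. The means of 44.4 ± 43.6 and 21.2 ± 3.61 CPM (SD, n = 3 each) gave a log2 fold change of -1.07 (SE 0.65, 95% interval -2.59 to 0.46) that was not called (edgeR adjusted p = 0.385). Without LiK 1 the sign turned, to 0.11 (edgeR adjusted p = 0.908). In limma-voom with sample weights, which give less weight to libraries that vary more, the log2 fold change was -0.13.

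None of the other mucosal genes was called. Tff1 had 113 to 169 counts in LiK and 31 to 128 in LiKM (log2 fold change -0.57, edgeR adjusted p = 0.489), and Tff2 had at most 5 counts in a library. Of 19 trefoil, mucin and related genes 5 could be tested, and 0 were called by edgeR. The goblet cell genes Muc2, Spdef and Agr2 had at most 2 counts in any library. LiK 1 was also the highest library for Spp1, a gene of bile duct cells and macrophages (4667 counts against 1511 and 1371 in the other LiK libraries). The duct marker Epcam had 24 counts in LiK 1 and 18 and 19 in the others. The part of bile duct cells in the Tff3 level was not tested.

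**Figure D3:**
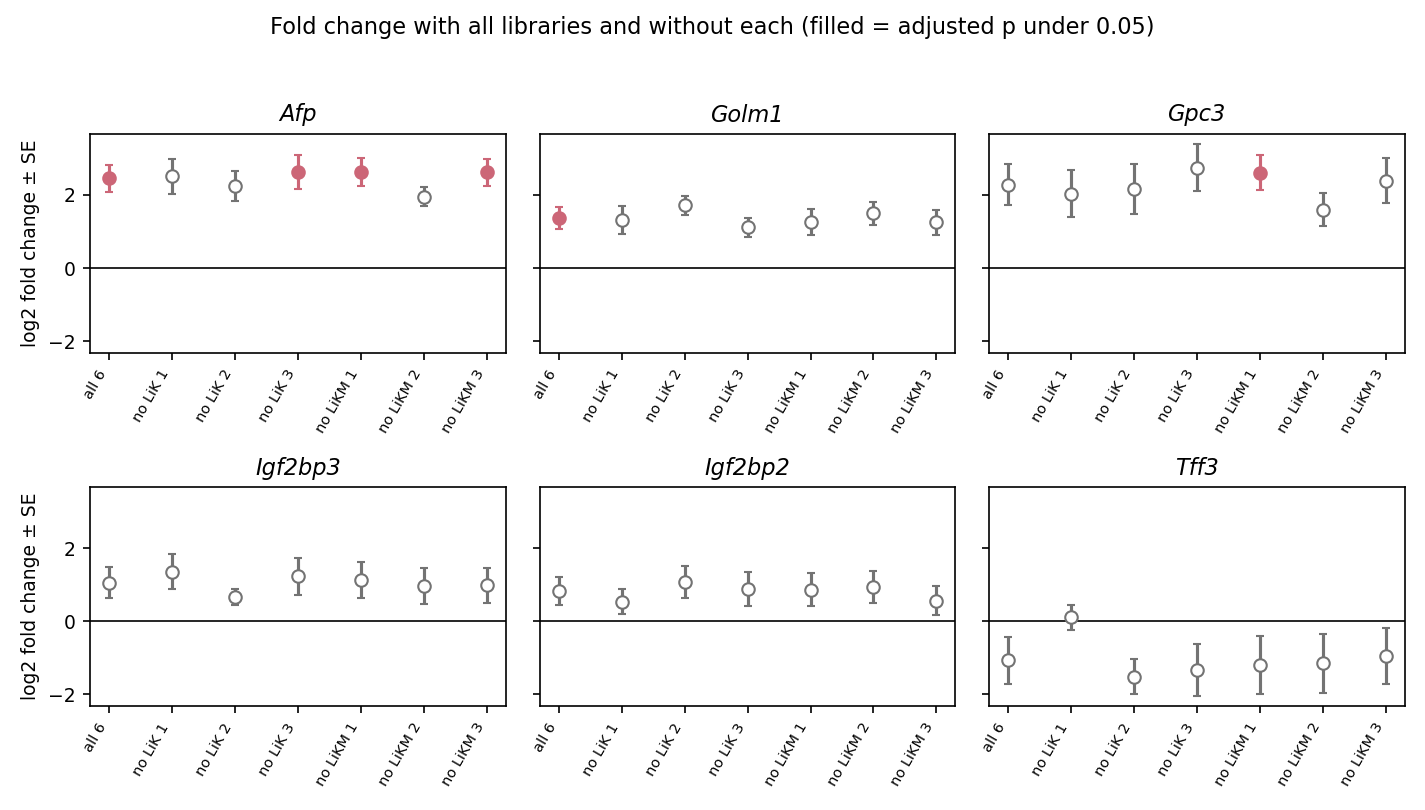
Log2 fold change ± SE (y axes) for the 6 tested genes with all 6 libraries and without each library in turn (x axes); filled red points have an edgeR adjusted p under 0.05. Afp stays called in 3 of the 6 omissions and Golm1 in 0, while Tff3 moves from -1.07 to 0.11 without LiK 1.

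Levels of different genes were compared as CPM per kilobase of the longest coding transcript. In LiK the order was Tff3 (90.0 CPM per kb, from 25.2 to 191), Golm1 (2.11), Afp (1.71), Igf2bp3 (0.71), Gpc3 (0.518) and Igf2bp2 (0.288), with Lin28b and Igf2bp1 at or near 0. The ranges of Golm1 and Afp overlapped, as did those of Igf2bp3 and Gpc3 and of Gpc3 and Igf2bp2, so these neighbours did not differ beyond their spread. In LiKM the order was Tff3 (42.9 CPM per kb), Afp (9.40), Golm1 (5.44), Gpc3 (2.56), Igf2bp3 (1.49) and Igf2bp2 (0.511). Here Afp lay above Golm1 in every library (at least 6.70 against at most 6.11 CPM per kb), while Gpc3 overlapped with both Golm1 and Igf2bp3. The Tff3 transcript used for this scaling is 493 bases long.

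The genes of most similar profile were found among 9410 named genes whose average log2 CPM reached 2, again by root mean square distance over the 6 libraries. For Afp they were Gbp2 (0.24), an interferon-induced GTPase gene, Slc16a5 (0.26), a monocarboxylate transporter gene, and H2-Ab1 (0.32), a class II antigen-presentation gene. For Gpc3 they were the desaturase gene Scd2 (0.35), the chemokine gene Cxcl10 (0.35) and Enc1 (0.37). Golm1 was nearest to the protease gene Tmprss2 (0.24), Ifi27l2b (0.27) and the galectin gene Lgals3 (0.29). Igf2bp3 was nearest to the kinase gene Pak1 (0.26), the collagen chaperone gene Serpinh1 (0.26) and the ceramide synthase gene Lass6 (0.28). Igf2bp2 was nearest to Mob3a, S1pr2 and Slc7a7 (0.15 each), while Tff3 had no near neighbour, with Rnaset2a at 0.47, Ugt2b37 at 0.50 and Tuft1 at 0.53.

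A wider list of fetal liver and liver cancer markers was read beside the 8 genes. Of 35 such genes 23 were tested, and in edgeR's test 7 rose and 0 fell, with a median of 1.12. Over all genes tested, 5.11% were called higher and 0.813% lower. The list was chosen with earlier results of these data known, so its count is a description only. Ly6d, a surface protein, rose from 0.694 to 32.5 CPM (log2 fold change 5.50, edgeR adjusted p = 0.00488). Prom1, a surface marker of progenitor and duct cells, rose by 2.57, and Pkm, the pyruvate kinase gene of fetal and dividing cells listed as Pkm2, by 0.97. Cd24a (1.53), Scd2 (1.69) and Spink1, listed as Spink3 (2.66), rose as well. Spink1 is a trypsin inhibitor gene often raised in liver cancer, counted 9, 1 and 6 times in LiK and 23, 48 and 31 times in LiKM. Dlk1, a marker of fetal hepatoblasts, was counted 1, 0 and 1 times in LiK and 24, 39 and 3 times in LiKM and did not pass the filter on low counts. Epcam (1.56), Krt19 (1.61) and Sox9 (1.12) were not called, with edgeR adjusted p of 0.0809, 0.0908 and 0.232. The imprinted fetal genes Mest (-0.07) and Peg3 (-0.35) were not called either, and their LiK and LiKM libraries overlapped.

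Genes of dividing cells and of some other cell types also differed between the genotypes. Over all genes tested, 5.11% were called higher and 0.813% lower. In bulk tissue, more cells of a type and more RNA per cell cannot be told apart. Of 15 genes of dividing cells 14 rose in edgeR's test, and their summed level was between 14.3 and 29.0 CPM in LiK and between 97.5 and 131 CPM in LiKM. Of 13 stellate cell markers 6 rose, with sums from 279 to 432 CPM in LiK and from 699 to 765 CPM in LiKM. Of 13 macrophage markers 7 rose (339 to 425 and 517 to 697 CPM), and of 10 tested T and natural killer cell markers 9 rose (4.02 to 7.37 and 20.6 to 30.3 CPM). Cd3e, Cd3d, Cd3g, Cd8a, Lck, Gzmb, Nkg7 and Ccl5 had at most 8 counts in any LiK library. They passed the filter through LiKM alone, as did the stellate marker Timp1, so these counts of called markers are a description only. Cd4 (-0.94) was not called, and Ncr1 and Klrb1c were too scarce to test. Of 13 tested cholangiocyte and ductular markers 2 rose, Cd24a and Prom1. Positive log2 fold changes were found in 11 of them, against 49.5% of all genes tested, and their median was 1.12. The summed level overlapped between the genotypes (129 to 290 and 129 to 294 CPM). Spp1 was the largest part of that sum in every library (56.3 to 225 CPM in LiK, 83.6 to 180 CPM in LiKM). Of 10 endothelial markers 0 were called by edgeR. Among 12 hepatocyte markers Serpina1c alone fell. The part of these cell types in the levels of the 8 genes was not tested. LiKM 2, the highest library for Afp and Gpc3, was also the highest for the macrophage sum (697 CPM) and the T and natural killer cell sum (30.3 CPM). Another library was close in both, LiKM 1 for macrophages (667 CPM) and LiKM 3 for T and natural killer cells (29.7 CPM). LiKM 1 was the highest for the stellate cell sum (765 CPM) and LiKM 3 for the dividing cell sum (131 CPM).

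**Figure D4:**
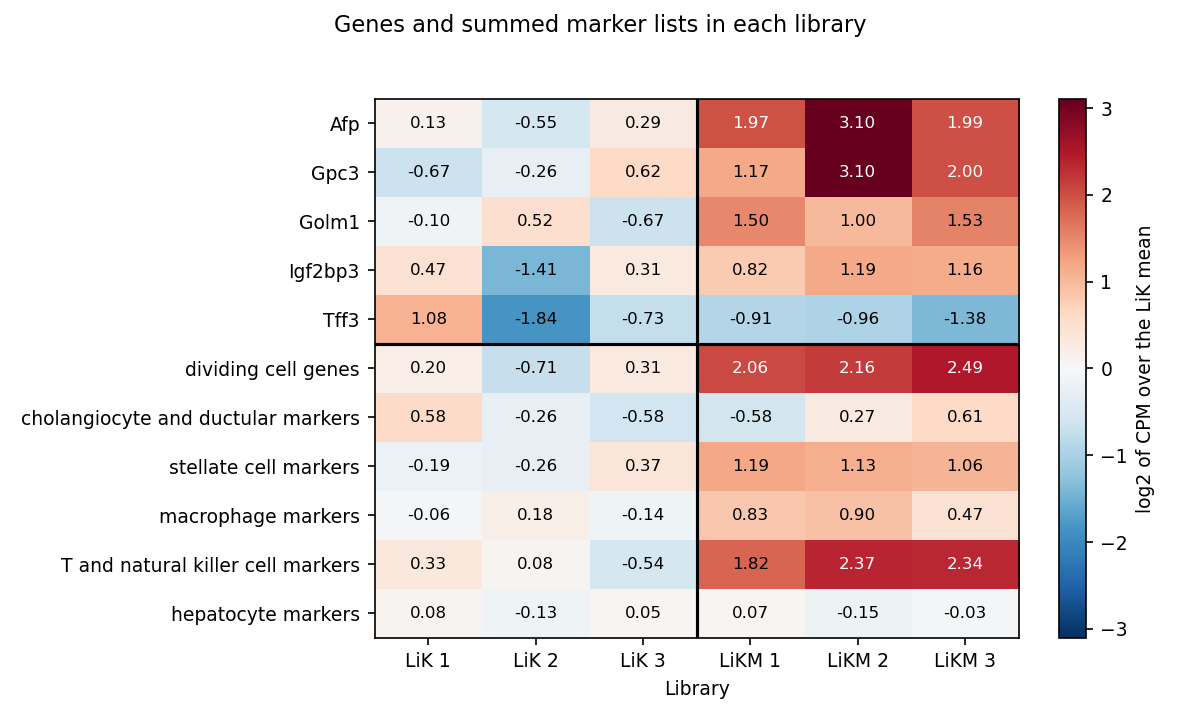
Log2 of each level over its LiK mean (colour and printed value) in the 6 libraries (columns) for 5 of the genes and, below the line, for the summed CPM of 6 marker lists (rows). Afp and Gpc3 both reach 3.10 in LiKM 2, where the T and natural killer cell markers stand at 2.37, the dividing cell genes at 2.16, the stellate cell markers at 1.13, the macrophage markers at 0.90, the cholangiocyte and ductular markers at 0.27 and the hepatocyte markers at -0.15. Spp1 is the largest part of the cholangiocyte and ductular sum in every library.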

How the data were processed

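The deposited table holds, for each gene symbol, the authors' raw counts of reads as whole numbers with no normalisation, 1 column per mouse. The submitters' processing notes name featureCounts and FastQC 0.11.7, and the library kit was stranded and selected messenger RNA, per the labels' protocols. Which aligner, build, annotation and strand setting were used is not given in the sources used here. Columns were assigned by the animal code in each title, and 0 were left unused. No source says whether animals were littermates or handled together, so an effect of litter or handling could not be checked. The p-values measure the genotype difference against the spread between these mice, which edgeR estimates partly across genes.

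Genes were kept with edgeR 4.0.16's default filter (a count of about 10 in at least 3 libraries, a total of at least 15), scaled by TMM (factors 0.903 to 1.11) and compared with its quasi-likelihood test in R 4.3.3, genotype being the only term. The threshold for a call was 0.05 after Benjamini-Hochberg adjustment. CPM use the scaled library sizes. Standard errors come from the fold change and its F statistic. Distances used log2 CPM with a prior count of 2. Scripts were tested on simulated data. Alternatives used DESeq2 1.42.0, limma 3.58.1 (voom with sample weights), other scalings and filters, a 1.5-fold threshold, a replicate block and omission of each library. Of 303 list memberships all matched a row, 9 through another symbol from the RefSeq table for GRCm38.p6. Gene lengths, chromosomes and 3′ UTRs come from GENCODE M21, which may differ from the annotation behind the counts.

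The 8 genes and the lists were chosen with earlier results of these data known. Named by rule were the 8 genes, their close homologues, up to 4 called genes per list with the smallest adjusted p (or, with none called, the 2 most abundant) and the 3 genes nearest in profile. Other genes named were chosen after their values were seen. Some items are not reported here.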

Additional observations from a re-analysis of the deposited data

How the results depend on the processing

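The number of genes called over the whole table was 692 higher and 110 lower. It was 1039 higher and 63 lower with library totals as the only scaling, which moved the median log2 fold change of all genes to 0.16, 1181 and 365 with DESeq2, 1063 and 260 with limma-voom, and 115 and 12 in the test against a 1.5-fold change. Leaving out 1 library gave 18 to 525 higher and 1 to 101 lower. The oncofetal genes called higher numbered 2, against 3 with library totals, with no filter and with DESeq2, 1 (Afp) with limma-voom, 0 against a 1.5-fold change (Afp adjusted p = 0.0507), and 0 to 2 without 1 library. The number called lower was 0 under every alternative. The direction of Afp, Gpc3, Golm1, Igf2bp2 and Igf2bp3 was the same in the 16 alternatives, and Tff3 ranged from -1.51 to 0.11 without 1 library, reversing without LiK 1. The cause of these differences was not tested.

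Whether the replicate numbers in the titles pair the mice cannot be decided from 3 mice per genotype. Deviations from the genotype mean correlated at 0.27, -0.00028 and 0.13 for numbers 1, 2 and 3. LiK 1 and LiK 3 correlated best with the LiKM mouse of the same number, and LiK 2 correlated best with LiKM 3. With the replicate number as a block, 669 genes were higher and 166 lower, and the oncofetal genes called were 2, Afp (adjusted p = 0.039) and Gpc3 (0.0489) in place of Golm1 (0.0713). Lin28b and Igf2bp1, with at most 5 counts in a library, are limited by depth.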
